A study of Drosophila melanogaster with 6 samples.

Results

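Chromosome 4 of *Drosophila melanogaster*, the small and largely heterochromatic chromosome that the protein POF binds, carries a group of genes for developmental transcription factors. The genes considered are *ey*, *toy*, *ci*, *sv*, *zfh2*, *pan*, *Sox102F*, *onecut* and *dati*. They were taken by name, and a probe set counted when the probe-to-gene table of the array paired it with one of these genes and no other. Of the 9 genes, 8 had such a probe set, which gave 11 probe sets among 13647 that name a single gene, and 8 of the 65 chromosome 4 genes measured. *pan*, the TCF factor of Wnt signalling, matched no probe set and was not analysed here. No expression minimum was applied, and levels below 6 on the log2 scale are marked as near background, after the cut-off that the study uses for reliable measurement.

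RNA of dissected testes was measured on Affymetrix arrays, where a probe set is a group of short probes against the same transcript, and the authors made log2 values with RMA (robust multi-array analysis). *Pof* mutant males were homozygous for *Pof*D119 in a *y*1 *w*67c23 background, and *y*1 *w*67c23 males were the wild type, so both groups carry the *yellow* and *white* alleles. Each group had 3 biological replicates, each a pool of 60 testes of males aged 0 to 24 h, for 6 arrays in all. The comparison asks whether the chromosome 4 genes depend on POF in testes. The few arrays limit the precision: with 3 against 3, the smallest p that an exact permutation test allows is 0.10.

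Most of these factors are known from eye, wing or nervous system development rather than from the testis. *ey* and *toy* encode the Pax6 proteins that start eye development, with *toy* acting upstream of *ey*, and *sv* encodes the Pax2 protein of cone and bristle cells. *ci* encodes the Gli-type zinc finger protein through which Hedgehog signals reach their target genes. In the testis, Hedgehog from the hub acts on the somatic cyst stem cells, so *ci* has a known role in this organ. *Sox102F* encodes an HMG box protein of the SoxD group, *zfh2* a protein with zinc fingers and homeodomains, *onecut* a homeodomain protein of neurons, and *dati* a zinc finger protein of the nervous system.

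The arrays gave the genotype that the labels state, with signal from markers of the male germline and of the accessory gland. *Pof* itself was lower in the mutant, at 10.39 ± 0.10 (SD, n = 3) against 12.98 ± 0.085 (SD, n = 3) in wild type testes (limma adjusted p = 9.5e-05). Where its probes lie relative to the mutation was not given in the sources used here. Of 11 probe sets for male germline markers, 7 had a mean of at least 6, among them *Mst87F* and *betaTub85D* of spermatids and spermatocytes. Those of *bam*, *vas*, *aly* and *twe* lay below 6. Only 1 of the 11, that of *dj*, was called, lower in the mutant. At an unadjusted p under 0.05 there were 2, that of *dj* and that of *mia*, which was higher in the mutant (difference 0.62, limma adjusted p = 0.220). The mutant mean was lower for 7 and higher for 4 of the 11. All 7 probe sets for accessory gland markers had a mean of at least 6 as well, so the samples also held accessory gland RNA. They gave 0 calls (0 at an unadjusted p under 0.05). The mean level of these 7 was 12.8 to 13.1 on the wild type arrays and 12.9 to 13.1 on the mutant arrays. For the 11 germline probe sets it was 8.2 to 8.5 and 8.1 to 8.4. The first principal component (51.2% of the variance) set the 2 arrays numbered replicate 2, from either genotype, apart from the remaining 4. The second (32.0%) set the genotypes apart, with mutant arrays at -25.1 to -14.1 and wild type arrays at 18.6 to 21.5.

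Of the 11 probe sets, 10, belonging to 7 genes, lay near background in both genotypes, and only that of *ci* had a mean of at least 6. Over these 10 probe sets and the 6 arrays, the values lay between 3.78 and 5.28. The step across the mark is wide: *ci* had a mean of 6.05 over the 6 arrays, and the probe set just below the mark, that of *Sox102F*, one of 5.16. Among the other chromosome 4 probe sets, 32 of 71 (45.1%) had a mean of at least 6, and among all tested probe sets the share was 58.9%.

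**Figure D1:**
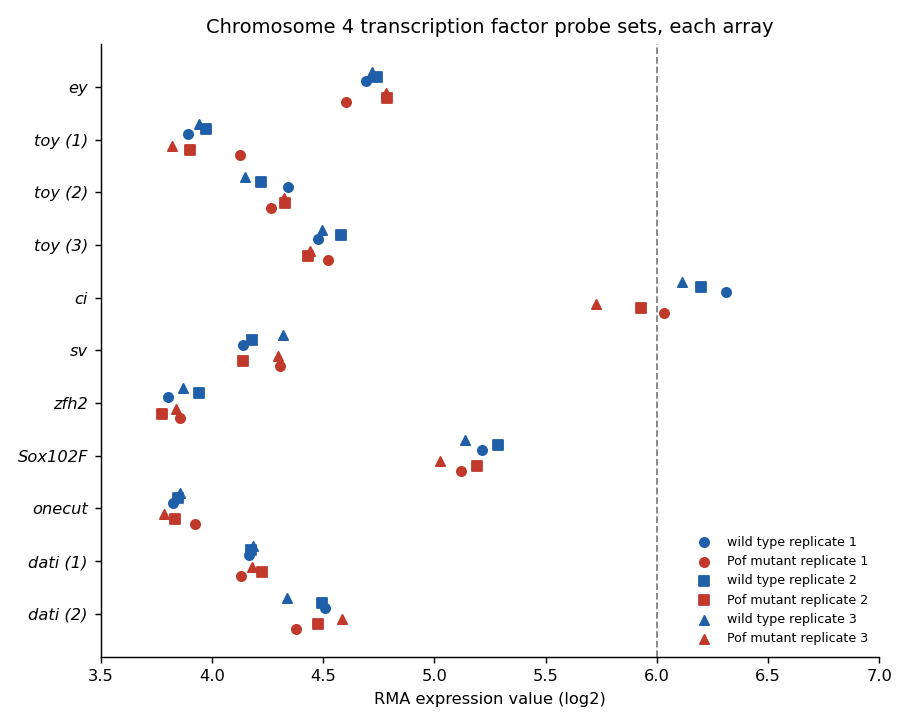
RMA values (log2) of the 11 probe sets on each of the 6 arrays, wild type in blue and *Pof* mutant in red, with the replicate shown by the shape of the point and the near-background mark at 6 as a dashed line. The values of *ci* straddle the mark, with all wild type arrays to the right of all mutant arrays, and the other 10 lie at 5.28 or below with overlapping groups; numbers in brackets tell apart probe sets of the same gene.

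No probe set of these genes passed the test between genotypes. With limma, 0 of 11 were called higher and 0 lower at an adjusted p under 0.05, against 2.48% of all tested probe sets in either direction (1.14% higher and 1.34% lower). Of all tested probe sets below 6, 0.821% were called. With replicate as a block, 0 of 11 passed as well, against 3.99%. At an unadjusted p under 0.05 there was 1 of 11, that of *ci*, against 13.9% of all probe sets (7.81% lower in the mutant). For *ci* the mutant and wild type arrays did not overlap, with the mutant below, and for the other 10 probe sets they did. A count of 1 in 11 is no more than the background, since 19.9% of all tested probe sets had groups that do not overlap, 10.8% with the mutant below and 9.13% with it above; below a level of 6 the share was 15.1%. The median log2 difference (*Pof* mutant minus wild type) over the 11 probe sets was 0.0052, beside 0.0067 over all tested probe sets and -0.17 over the other 71 of chromosome 4.

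**Figure D2:**
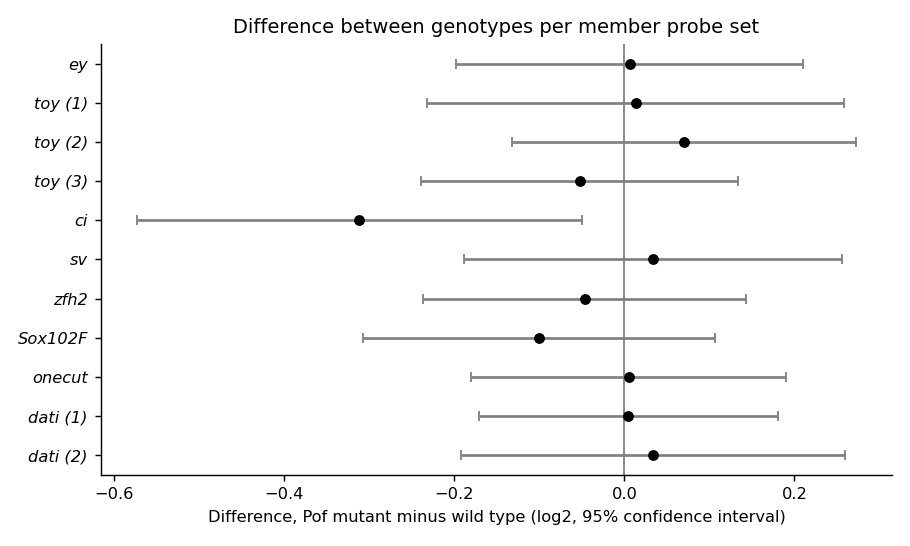
Difference between *Pof* mutant and wild type (log2) for each of the 11 probe sets, with the 95% confidence interval from limma over 3 arrays per genotype. The interval of *ci* lies below 0, from -0.57 to -0.05, before adjustment for the number of probe sets, and the intervals of the other 10 include 0.

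*ci* (probe set 1623144_at), the effector of Hedgehog signalling, had values of 6.31, 6.20 and 6.11 on wild type arrays 1, 2 and 3 and of 6.03, 5.93 and 5.72 on the mutant arrays. All wild type arrays thus lay above the mark of 6, and of the mutant arrays only replicate 1 did. The wild type mean was 6.21 ± 0.10 (SD, n = 3) and the mutant mean 5.89 ± 0.16 (SD, n = 3). The difference was -0.31 (standard error 0.11, 95% confidence interval -0.57 to -0.05), or 80.6% of the wild type signal, and did not pass after adjustment (limma adjusted p = 0.262). Since its groups did not overlap, every pairing of mutant with wild type arrays must give a lower mutant value. By replicate number the differences were -0.28, -0.27 and -0.39. Near background a part of the signal is unspecific binding, so the size of a difference in transcript can be understated. In testis RNA, fewer cells of a type and less RNA per cell cannot be told apart.

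Of the markers of tissues other than the germline read beside *ci*, those of the fat body changed, and their part in the difference of *ci* was not tested. Of 5 listed fat body and haemolymph genes 2 were measured, *Lsp2* and *Fbp1*, and both were lower in the mutant (limma adjusted p = 0.022 and 0.034). With replicate as a block *Lsp2* still passed and *Fbp1* did not (limma adjusted p = 0.028 and 0.052). Their summed signal was 8.38 to 9.33 (log2) on the wild type arrays and 6.94 to 7.35 on the mutant arrays, without overlap. Markers of hub and cyst cells, which are somatic cells of the testis, gave 0 calls in 7 probe sets (0 at an unadjusted p under 0.05). Their summed signals were 8.39 to 8.50 in wild type and 8.28 to 8.57 in mutant testes. Only *eya* and *hh* of that list had a mean of at least 6. Of 8 listed testis sheath muscle genes 4 were measured, by 5 probe sets, since *Prm* had more than 1. For 5 of 5 probe sets the mean was lower in the mutant, beside 6569 of all 13647 tested. On each of the 5, wild type replicate 3 was the highest of the 6 arrays. The list gave 0 calls (1 at an unadjusted p under 0.05), with summed signals of 10.43 to 11.50 in wild type and 10.41 to 10.69 in mutant testes. One of these 5, that of *bt*, is itself a chromosome 4 probe set (difference -0.41).

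*ey* and *toy*, the Pax6 genes, lay near background on every array. The probe set of *ey* (1628973_a_at) had values of 4.69, 4.74 and 4.72 on the wild type arrays and of 4.60, 4.79 and 4.78 on the mutant arrays. The mutant arrays thus lay on both sides of the wild type range, and the difference was 0.0063 (standard error 0.085, 95% confidence interval -0.20 to 0.21, limma adjusted p = 0.986). *toy* had 3 probe sets, whose differences did not share a sign. The first (1623314_at) had values of 3.89, 3.97 and 3.94 in wild type and of 4.13, 3.90 and 3.82 in mutant testes. Its mutant replicate 1 was above, and the other mutant replicates were below or within, the wild type range, with a difference of 0.013 (95% confidence interval -0.23 to 0.26). The second (1633094_a_at), which by its name covers several transcripts of the gene, had values of 4.34, 4.22 and 4.15 in wild type and of 4.27, 4.33 and 4.33 in mutant testes. All its mutant values lay within the wild type range, and the difference was 0.07 (95% confidence interval -0.13 to 0.27). The third (1633512_at) had values of 4.48, 4.58 and 4.49 in wild type and of 4.52, 4.43 and 4.44 in mutant testes. Here mutant replicates 2 and 3 lay below all wild type arrays and replicate 1 did not, with a difference of -0.05 (95% confidence interval -0.24 to 0.13). Averaged over its probe sets, *toy* had a difference of 0.01 (standard error 0.076, limma adjusted p = 0.974).

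*sv*, the third Pax gene of chromosome 4 (probe set 1636090_a_at), had values of 4.14, 4.18 and 4.32 on the wild type arrays and of 4.31, 4.14 and 4.30 on the mutant arrays. Both groups spread over the same range, and the difference was 0.03 (standard error 0.093, 95% confidence interval -0.19 to 0.26, limma adjusted p = 0.935). *Sox102F*, whose HMG box binds DNA in the minor groove (probe set 1636331_at), had values of 5.21, 5.28 and 5.14 in wild type and of 5.12, 5.19 and 5.02 in mutant testes. In each pair of arrays with the same number the mutant was lower, but the groups overlapped, since mutant replicate 2 lay above wild type replicate 3. Its difference was -0.10 (standard error 0.086, 95% confidence interval -0.31 to 0.11, limma adjusted p = 0.716).

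*zfh2*, *onecut* and *dati* had differences between -0.05 and 0.03, smaller than the standard error of each. *zfh2*, which acts in wing and leg patterning (probe set 1627320_at), had values of 3.80, 3.94 and 3.87 in wild type and of 3.86, 3.78 and 3.84 in mutant testes. The mutant arrays lay within or below the wild type range, with a difference of -0.05 (95% confidence interval -0.24 to 0.14). *onecut* (probe set 1630376_at) had values of 3.83, 3.85 and 3.86 in wild type and of 3.92, 3.84 and 3.79 in mutant testes. The wild type arrays lay close together between the mutant ones, and the difference was 0.0052 (95% confidence interval -0.18 to 0.19). For *dati*, the first probe set (1630058_at) had values of 4.17, 4.17 and 4.19 in wild type and of 4.13, 4.23 and 4.18 in mutant testes. The second (1632570_at) had values of 4.51, 4.49 and 4.34 in wild type and of 4.38, 4.48 and 4.58 in mutant testes. Both had overlapping groups, with differences of 0.0047 (95% confidence interval -0.17 to 0.18) and 0.03 (95% confidence interval -0.19 to 0.26). Over the 10 probe sets near background the limma adjusted p lay between 0.716 and 0.988, and the half-width of the confidence intervals between 0.18 and 0.24. These intervals describe the measured signal, of which a part is unspecific binding at such levels.

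Neuronal and eye markers were read on the same arrays, since several of these factors act in neurons and the eye. Of 10 listed genes 7 were measured, by 10 probe sets. Of these probe sets, 2 had a mean of at least 6, one of *nSyb*, a synaptic vesicle protein, and one of *brp*, a protein of the presynaptic active zone. The other *brp* probe sets had means of 4.47, 4.65 and 5.88. *elav*, the RNA-binding protein that defines neurons, was near background, at 4.64 ± 0.10 (SD, n = 3) in wild type testes and 4.69 ± 0.083 (SD, n = 3) in the mutant. The list gave 0 calls with limma (1 at an unadjusted p under 0.05, that of *chp*), and its summed signal was 8.95 to 9.11 in wild type and 9.05 to 9.11 in mutant testes. *chp* had a mean of 5.75 and a difference of 0.43 (limma adjusted p = 0.124).

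Below the mark of 6, the other chromosome 4 probe sets had a median difference close to 0 but a wider spread than the transcription factors. The median was -0.02 over 39 probe sets, with a lower quartile of -0.17, and 27 had a lower and 12 a higher mutant mean. Of the 39, 1 was called, that of *Zip102B*, a zinc transporter gene, at a wild type mean of 6.29 and a mutant mean of 4.69 (difference -1.59, limma adjusted p = 0.0029). *Rnf11*, *Pur-alpha* and *yellow-h* had probe sets below the mark with differences of -1.30, -0.86 and -0.73 that did not pass. The wild type means of these 4 lay above 6, so their lower mutant values brought the mean over the 6 arrays under the mark; all 4 were chosen after their values were seen. By comparison, the 10 near-background transcription factor probe sets, all below 6 in both genotypes, had a median of 0.0057, with 3 lower and 7 higher. Over all 5604 tested probe sets below 6 the median was 0.04. At 6 or above, the other chromosome 4 probe sets had a median of -0.30 over 32, with 29 lower and 3 higher, beside -0.03 over all 8043 tested probe sets of that range. The difference of *ci*, -0.31, thus lay close to that median, and 13 of the 32 had a more negative one. Of the 71 other chromosome 4 probe sets, 2 were called lower and 0 higher.

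**Figure D3:**
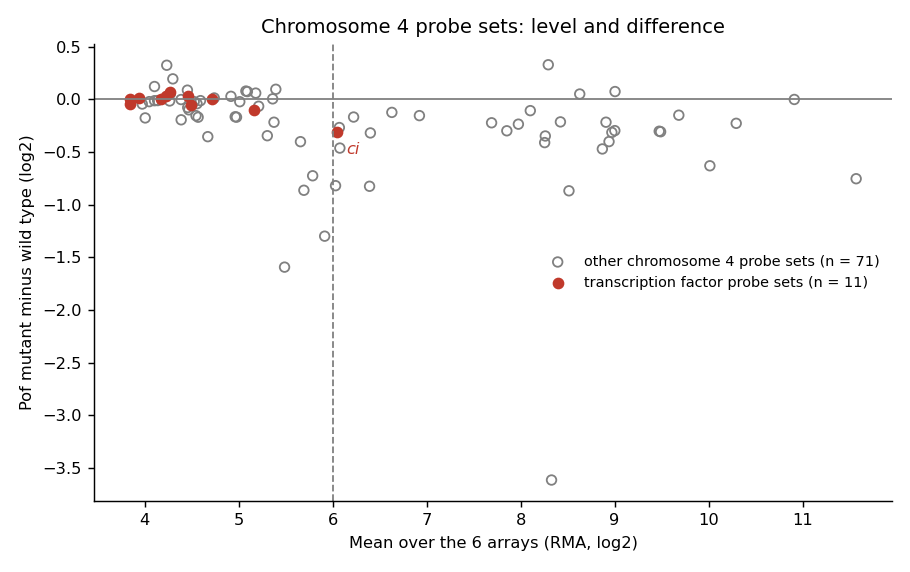
Difference between *Pof* mutant and wild type (log2) against the mean over the 6 arrays (log2) for the 82 chromosome 4 probe sets that name a single gene, transcription factor genes in red and the other 71 as open circles; the dashed line is the near-background mark of 6. The transcription factor probe sets other than *ci* lie left of the mark close to a difference of 0, and *ci* lies just right of it at -0.31, while the open circles right of the mark have a median of -0.30.

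Along chromosome 4 the 8 measured genes are scattered, each with measured neighbours outside the group. In the order of the 80 protein-coding genes of the Release 6 annotation, *ci* is gene 3, *dati* 27, *zfh2* 33, *onecut* 39, *ey* 49, *Sox102F* 52, *toy* 60 and *sv* 69. The nearest measured gene on each side gave 16 neighbours, each averaged over its probe sets, with a median difference of -0.06 and 0 calls. Of these genes, 12 had a lower and 4 a higher mean in the mutant. Counted by probe set rather than by gene, the other 71 of chromosome 4 had 56 lower and 15 higher. Factor genes near background thus sit beside genes with a mean of at least 6. *ey* lies next to *bt*, a giant muscle protein gene, which had a difference of -0.41, and *Sox102F* next to the Mediator subunit gene *MED26*, with one of -0.30. The other neighbours of that level were *Taf3* beside *dati* (-0.31), *Cals* beside *sv* (-0.22) and *Tdg* beside *zfh2* (-0.17). *Eph* beside *onecut* was at -0.11, and *Mpv17* beside *toy* went the other way, at 0.33. Neither *bt* nor *MED26* passed the test (limma adjusted p = 0.653 and 0.318), and both were chosen after their values were seen.

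Among the 32 other chromosome 4 probe sets with a mean of at least 6, the pattern of *ci* over the 6 arrays was most like that of *Crk*, an adaptor protein of receptor signalling, and of *MED26*. Pearson's r over the 6 arrays, which share both genotypes, was 0.96 with *Crk* and 0.93 with *MED26*, beside a median of 0.68 over all 32. *Crk* had values of 10.42, 10.28 and 10.29 in wild type and of 9.82, 9.83 and 9.45 in mutant testes. As for *ci*, mutant replicate 3 was the lowest array, and the groups did not overlap. Its difference was -0.63 (limma adjusted p = 0.062).

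The partners of *ci* in the Hedgehog pathway gave no calls either. Of 16 listed genes 13 were measured, by 15 probe sets, and with limma 0 were higher and 0 lower in the mutant. At an unadjusted p under 0.05 there were 2, against 13.9% of all tested probe sets. The median difference of the 15 was -0.02, beside 0.0067 over all tested probe sets, and 9 lay below and 6 above wild type. *Cul3*, a scaffold of ubiquitin ligases that act on Ci, had a level of 12.25 over the 6 arrays and a difference of -0.04 on that probe set. Its other probe set had a level of 9.22 and a difference of 0.12. *Su(fu)*, which holds Ci back in the cytoplasm, had a wild type mean of 8.13 ± 0.043 (SD, n = 3) and a mutant mean of 8.13 ± 0.017 (SD, n = 3). The ligand gene *hh* had 5.95 ± 0.096 (SD, n = 3) and 6.09 ± 0.35 (SD, n = 3), and the receptor gene *ptc*, itself a target of Ci, 5.69 ± 0.16 (SD, n = 3) and 5.67 ± 0.23 (SD, n = 3). The differences of *hh* and *ptc* were 0.14 (95% confidence interval -0.29 to 0.56) and -0.02 (95% confidence interval -0.36 to 0.32), and both genes were chosen after their values were seen.

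Genes that work with the Pax6 factors in eye development, and the relatives of the factors by protein family, were counted in the same way. Over all tested probe sets, 13.9% had an unadjusted p under 0.05 with limma and 19.9% had groups that do not overlap. Of the retinal determination network, 8 of 10 genes were measured and 0 of 8 probe sets passed (0 at an unadjusted p under 0.05), with a median difference of -0.04. *Optix*, a Six-type homeodomain factor, had wild type and mutant means of 10.18 ± 0.16 (SD, n = 3) and 10.05 ± 0.12 (SD, n = 3), and *tio*, a zinc finger factor, had 7.79 ± 0.33 (SD, n = 3) and 8.12 ± 0.22 (SD, n = 3). For both the groups overlapped. Of the Pax family outside chromosome 4, 0 of 7 probe sets passed with limma (2 at an unadjusted p under 0.05), with a median of 0.11. *prd* had means of 9.15 ± 0.10 (SD, n = 3) and 8.77 ± 0.021 (SD, n = 3), without overlap and with an adjusted p = 0.087. *gsb-n*, named after its values were seen, had 4.85 ± 0.18 (SD, n = 3) and 5.57 ± 0.19 (SD, n = 3), also without overlap (limma adjusted p = 0.052), with both means near background. The 2 probe sets of *Poxm* had differences of 0.11 and 0.20.

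Of the Sox genes outside chromosome 4, 7 of 7 were measured and 0 of 8 probe sets passed with limma (2 at an unadjusted p under 0.05). *D* (Dichaete) had a difference of -0.04 and *Sox14* one of 0.25, without overlap for *Sox14* (limma adjusted p = 0.238). The homeobox and zinc finger relatives comprised 5 genes and 23 probe sets, most of them of *lola*, and 0 passed, with a median of 0.00087. At an unadjusted p under 0.05 there were 6, all of *lola* or *chinmo*, so they do not count as separate genes. With replicate as a block 1 of the 23 passed, a *lola* probe set with a difference of -0.58 (limma adjusted p = 0.028 with the block). The probe sets of *lola* did not share a sign. The others of them at an unadjusted p under 0.05 had differences of 0.45, 0.34, 0.25 and -0.20. *cad* had a difference of -0.29 and *chinmo*, which maintains cyst stem cells, differences of -0.53, -0.21 and 0.12 on its 3 probe sets, from the highest to the lowest mean (limma adjusted p = 0.257, 0.450 and 0.661). Of the Wnt pathway only 7 of 20 listed genes were measured, and 0 of 8 probe sets passed (1 at an unadjusted p under 0.05). Its corepressor gene *CtBP* had differences of -0.20 and -0.0067 on its 2 probe sets, and *wls*, which carries Wnt proteins to the cell surface, one of -0.04.

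**Figure D4:**
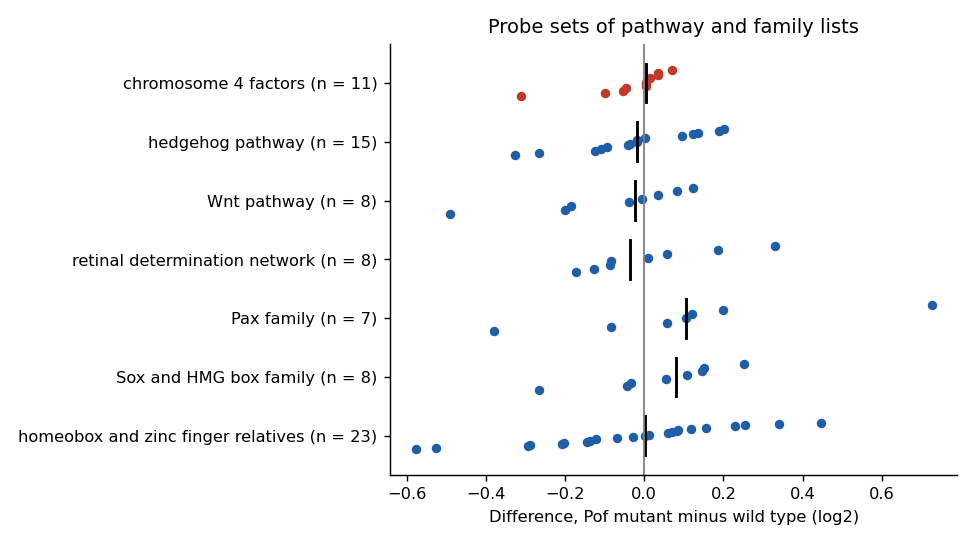
Difference between *Pof* mutant and wild type (log2) of each probe set, a point each in rank order, for the chromosome 4 transcription factors in red and 6 pathway or family lists in blue, with the median of each as a black line. The medians lie between -0.04 and 0.11, and no probe set shown passed limma after adjustment.

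The difference of *ci* ranged from -0.38 to -0.23 under the 15 alternative treatments of the arrays and passed the threshold under none of them. Its sign could not reverse when arrays were left out, since the groups did not overlap. The fits that left the values of *ci* unchanged kept the difference at -0.31. With the study's minimum of 6 and its constant on the mutant arrays it was -0.25 (limma adjusted p = 0.234). The lowest adjusted p, 0.116, was that with the replicate number as a block.

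**Figure D5:**
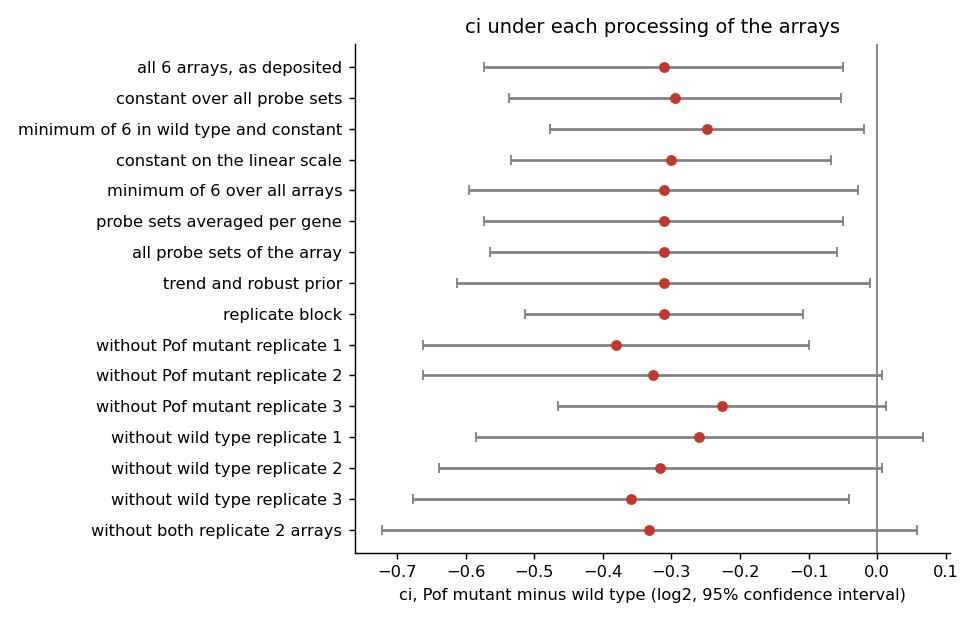
Difference of *ci* between *Pof* mutant and wild type (log2) with its 95% confidence interval, for the values as deposited and for 15 other treatments of the arrays. Every point lies between -0.38 and -0.23, and the interval reaches 0 in several of the fits that leave arrays out.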

How the data were processed

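Testis RNA of 3 *Pof* mutant and 3 wild type replicates was measured on Affymetrix *Drosophila* version 2 arrays. The authors deposited log2 values from RMA, which subtracts background, quantile-normalises and summarises each probe set, for 18952 probe sets; its version was not given in the sources used here. Quantile normalisation would remove a change shared by most genes. The deposited values held neither of the later steps of the study's methods, a minimum of 6 and a constant on the mutant arrays, and array medians lay between 5.78 and 5.88. Of the probe sets, 13647 named 1 gene in the array's table, 402 several and 4903 none in that table; the first were tested, each as a row, with R 4.3.3 and limma 3.58.1 (lmFit, eBayes, mutant minus wild type, Benjamini-Hochberg adjustment over all 13647, threshold 0.05), a procedure tested on simulated data. The study's minimum and constant were an alternative, because near-background genes were to be kept.

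Every probe set of the genes considered is named. From each other list, probe sets past the threshold were to be named, or else the 2 genes with the highest mean level; for *ci*, the 2 chromosome 4 genes most correlated with it. The genes and lists were chosen with earlier results of these data known. Chromosomes and gene order come from the Release 6 table, without coordinates, since the sources used here name no build for the array design. For arrays with the same replicate number, the correlations of their deviations from the group means were 0.25, 0.85 and 0.55. Those of mutant replicate 1 with wild type 3 and of mutant 3 with wild type 1 were 0.47 and 0.54. Only replicate 2 thus stood apart as a pair. The block fit treated all the numbers as pairs, and neither the labels nor the methods name a shared day. Python 3.11.15 with matplotlib 3.10.9 drew the figures.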

Additional observations from a re-analysis of the deposited data

How the results depend on the processing

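The values were recomputed under 15 alternatives: 3 constants or minima on the scale, a minimum over all arrays, averages per gene, all probe sets, another variance prior, the replicate number as a block, each array left out, and, chosen after the data were seen, no replicate 2 of either genotype. No transcription factor probe set passed the threshold under any of them, the lowest adjusted p being 0.116, for *ci* with the block. The number of all probe sets called was 545 with the replicate block (314 lower) and 144 to 335 with 1 array left out (83 to 184 lower and 61 to 161 higher), against 339. Without *Pof* mutant replicates 1 and 2 it was 176 and 216, and without wild type replicates 1 and 3 it was 144 and 201.

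With a minimum of 6, only *ci* of these genes was left, so the median over the group became -0.25 with the constant and -0.31 with the minimum over all arrays; with 1 array left out it was -0.032 to 0.0081. With 1 array left out, the groups did not overlap for 1 to 3 probe sets, which fewer arrays make easier, and for 2 without both replicate 2 arrays, those of *ci* and *Sox102F*. Differences near 0 changed sign. Without both replicate 2 arrays *ey* was at -0.014, *zfh2* at 0.012 and the first *dati* probe set at -0.019. With 1 array left out, *ey* ranged from -0.025 to 0.066, the first *toy* probe set from -0.076 to 0.079, *sv* from -0.0035 to 0.088, *onecut* from -0.032 to 0.036 and the *dati* probe sets from -0.018 to 0.028 and from -0.021 to 0.083. All values but that of *ci* lay near background, which limits what they can show.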
